A study of Mus musculus with 24 samples.

Results

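Expression was examined for 43 mouse genes whose products carry cargo between the endoplasmic reticulum (ER) and the Golgi apparatus: the COPII and COPI coats with the GTPases that build them, the cargo receptors of these vesicles, and the TRAPP tethering complexes. They were chosen by symbol from a list, not by their values. All 43 were found among the 24421 genes of the count table, and all 43 were among the 13761 genes that passed the filter on low counts. Polyadenylated RNA came from MIN6 cells, a mouse insulinoma line that makes and secretes insulin. The control cells received a GFP plasmid, and the others a plasmid encoding EIF2A, a translation initiation factor, joined to GFP. They then received 1 µM thapsigargin, which blocks the calcium pump of the ER and causes ER stress, for 1 or 3 h, or only the DMSO vehicle, called 0 h here. The 6 groups are GFP at 0, 1 and 3 h and EIF2A at 0, 1 and 3 h, each with 4 libraries. All cells shared 1 line and 1 culture medium, and no vehicle group was taken at 1 or 3 h, so thapsigargin and the time after its addition cannot be told apart.

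COPII vesicles bud from the ER. The exchange factor Preb (Sec12) loads the GTPase Sar1, Sec16a and Tfg organise the exit sites, Sec23 and Sec24 form the inner coat, with Sec24 binding cargo, and Sec13 and Sec31 form the outer cage. COPI vesicles bud from the Golgi when Arf1, loaded by Gbf1, recruits coatomer, and they bring back escaped ER proteins bound to KDEL receptors, with p24 proteins of the Tmed family as further cargo receptors. TRAPP complexes activate Rab GTPases where vesicles arrive, and beta cells send all their proinsulin along this route.

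Levels below are in CPM, read counts set relative to the TMM-scaled library total, given for replicates 1, 2, 3 and 4 in that order. For 12 members, 4 to 1575 exonic bases are shared with a gene on the other strand, and the strand setting of the counting is not given in the sources used here. Library totals ran from 10522758 to 22222701 counts. Nothing in the labels states that replicates came from separate cultures, so the p-values measure only the spread between these libraries, which may be technical. Replicate 1 went against its construct labels. Eif2a was 269, 79.0, 77.8 and 78.7 CPM in GFP at 0 h and 80.3, 141, 142 and 134 CPM in EIF2A at 0 h. It was thus higher with the EIF2A label in replicates 2 to 4 and lower with it in replicate 1, and the same held at 1 and 3 h. The labels do not say whether the plasmid holds the mouse coding sequence. Comparisons of constructs are therefore given for the libraries as labelled, with and without replicate 1. The 6 beta cell markers were abundant, with a median of 40466 CPM for Ins2 and 313 CPM for Pdx1. Of 19 markers of other cell types, 16 had a median of at most 2.35 CPM, and the other 3 were Gcg at 344, Spp1 at 234 and C1qa at 33.4 CPM. These 3 split by construct label, with replicate 1 reversed, as given with the construct comparisons.

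Per kilobase of exon, averaged over the 24 libraries, Arf1, Kdelr2 and Kdelr1 stood highest. Arf1 reached 259.6 CPM per kilobase, Kdelr2 152 and Kdelr1 97.6. Over the libraries Kdelr1 ranged from 67.6 to 127, and Cope, next in order, from 71.4 to 126, so the order of these is not resolved. Kdelr2, at 98.9 to 202, overlapped both Kdelr1 and Arf1, at 187 to 326. The inner coat genes were far lower, with 18.3 CPM per kilobase for Sec23b, 34.6 for Sec24c and 15.2 for Sec24b. The paralogs Sec24a at 4.28 and Sec23a at 4.26 and the TRAPP subunit gene Trappc8 at 3.92 were the lowest of the 43. Their ranges over the libraries, 2.34 to 6.28, 1.54 to 6.42 and 2.41 to 5.14 CPM per kilobase, overlapped, so the order of these 3 is not resolved.

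A promoter motif known from ER stress was looked for because many of these genes are described as targets of the unfolded protein response. RefSeq windows on GRCm38.p6, from 250 bases before to 50 after a gene's start, were given for 36 of the 43 members. None was matched for Arcn1, Kdelr2, Tmed2, Trappc1, Trappc4, Trappc8 or Trappc9, so the search says nothing of these. Both strands were searched. The core TGACGTGG of the unfolded protein response element, which ATF6 and XBP1 can bind, stood in 7 of the 36, against 1.02% of the promoters of tested genes and 0.714% of all promoters. Of the 7 genes, only Copb2, which rose, and Arf1, which fell, passed the unpaired test of time given below. The 7 sites are shown with 11 bases on either side, in the direction of the gene, with the motif or its reverse complement in capitals.
Sec24d, chr3:123267459-123267488, plus strand: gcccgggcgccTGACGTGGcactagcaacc
Copb1, chr7:114254690-114254719, minus strand: cccgcccccttCCACGTCAgccaaggactt
Copb2, chr9:98563713-98563742, plus strand: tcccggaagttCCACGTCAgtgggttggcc
Arf1, chr11:59228228-59228257, minus strand: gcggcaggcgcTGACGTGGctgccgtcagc
Sec23a, chr12:59011993-59012022, minus strand: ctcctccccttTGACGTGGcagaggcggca
Kdelr3, chr15:79516367-79516396, plus strand: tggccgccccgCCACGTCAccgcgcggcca
Gbf1, chr19:46152535-46152564, plus strand: gaggctagttaCCACGTCAgtgagctgaca
Within these windows, the capitals began between 30 bases before and 21 bases after the start, while in a second window given for Arf1 the same site began 84 bases before it. The shorter CCACG, which the reverse complement of TGACGTGG contains, was in 23 of 36 members and in 52.1% of the promoters of tested genes. The ER stress response element (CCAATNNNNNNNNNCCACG), its second form (ATTGGNCCACG) and the ATF4 composite sites TGATGCAAT and TGATGAAAC were in 0 of 36 windows, against 0.163%, 0.077%, 0.153% and 0.144% of the promoters of tested genes. A match describes the letters of a window and shows no binding.

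After 3 h of thapsigargin, Kdelr1, Kdelr2, Tmed2 and several small TRAPP subunit genes fell, and Tfg and Copb2 rose, in libraries of both labels. Trappc12 rose too, but its calls were lost for 3 and 2 of 8 libraries left out singly. They were also lost when a trend with exon length was removed. In bulk RNA, fewer cells of a kind and less RNA per cell cannot be told apart. A gene counts as called where edgeR's quasi-likelihood test gave an adjusted p under 0.05 over all 13761 genes. In GFP cells at 3 h against 0 h, 3 members rose and 11 fell, where 33.0% of all genes were called, 18.4% up and 14.6% down. The EIF2A cells had 4 members up and 13 down, where 36.2% of all genes were called, 19.6% up and 16.6% down. The share of members called, 32.6% and 39.5%, was thus near that of all genes. The median log2 fold change of the members was -0.105 in GFP and -0.181 in EIF2A, against -0.002 and -0.01 over all genes. Scaling by library totals alone, which moved the median of all genes to 0.116 and 0.146, gave 7 members up and 9 down in GFP, where 34.2% of all genes were called, 24.4% up and 9.77% down. In EIF2A it gave 10 up and 8 down, where 37.4% were called, 27.7% up and 9.70% down. The split between directions thus depends on the scaling, for the members as for all genes. Under both scalings and in both constructs, a larger share of the members than of all genes fell, and a smaller share rose.

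With all 4 replicates, deviations from the group means correlated between libraries of the same number and construct, from 0.51 to 0.933. Among replicates 2 to 4 alone the correlations were only -0.026 to 0.312, so pairing beyond replicate 1 is weak. The labels do not say that equal numbers share a culture. The test was also run with the replicate number as a block, called the paired test here. It called 14 members up and 20 down in GFP at 3 h, where 67.1% of all genes were called, 33.6% up and 33.5% down. In EIF2A it called 14 up and 21 down, where 66.2% of all genes were called, 32.9% up and 33.3% down. Over the 8 same-number pairs of 3 h against 0 h, 4 per construct, 20 members were lower at 3 h in all 8, 12 were higher in all 8 and 11 went both ways. Of all genes tested, 28.3% were lower and 28.2% higher in all 8, against 46.5% and 27.9% of the members. Exon length moved with direction. The 20 lower members had a median exonic length of 2432 bases and the 12 higher ones 6417 bases, and its part in the result was not tested beyond removing a length trend. With it removed, 3 members were called up and 14 down in GFP, where 33.2% of all genes were called, 16.6% up and 16.5% down. In EIF2A it was 4 up and 15 down, where 36.2% were called, 17.9% up and 18.3% down.

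**Figure D1:**
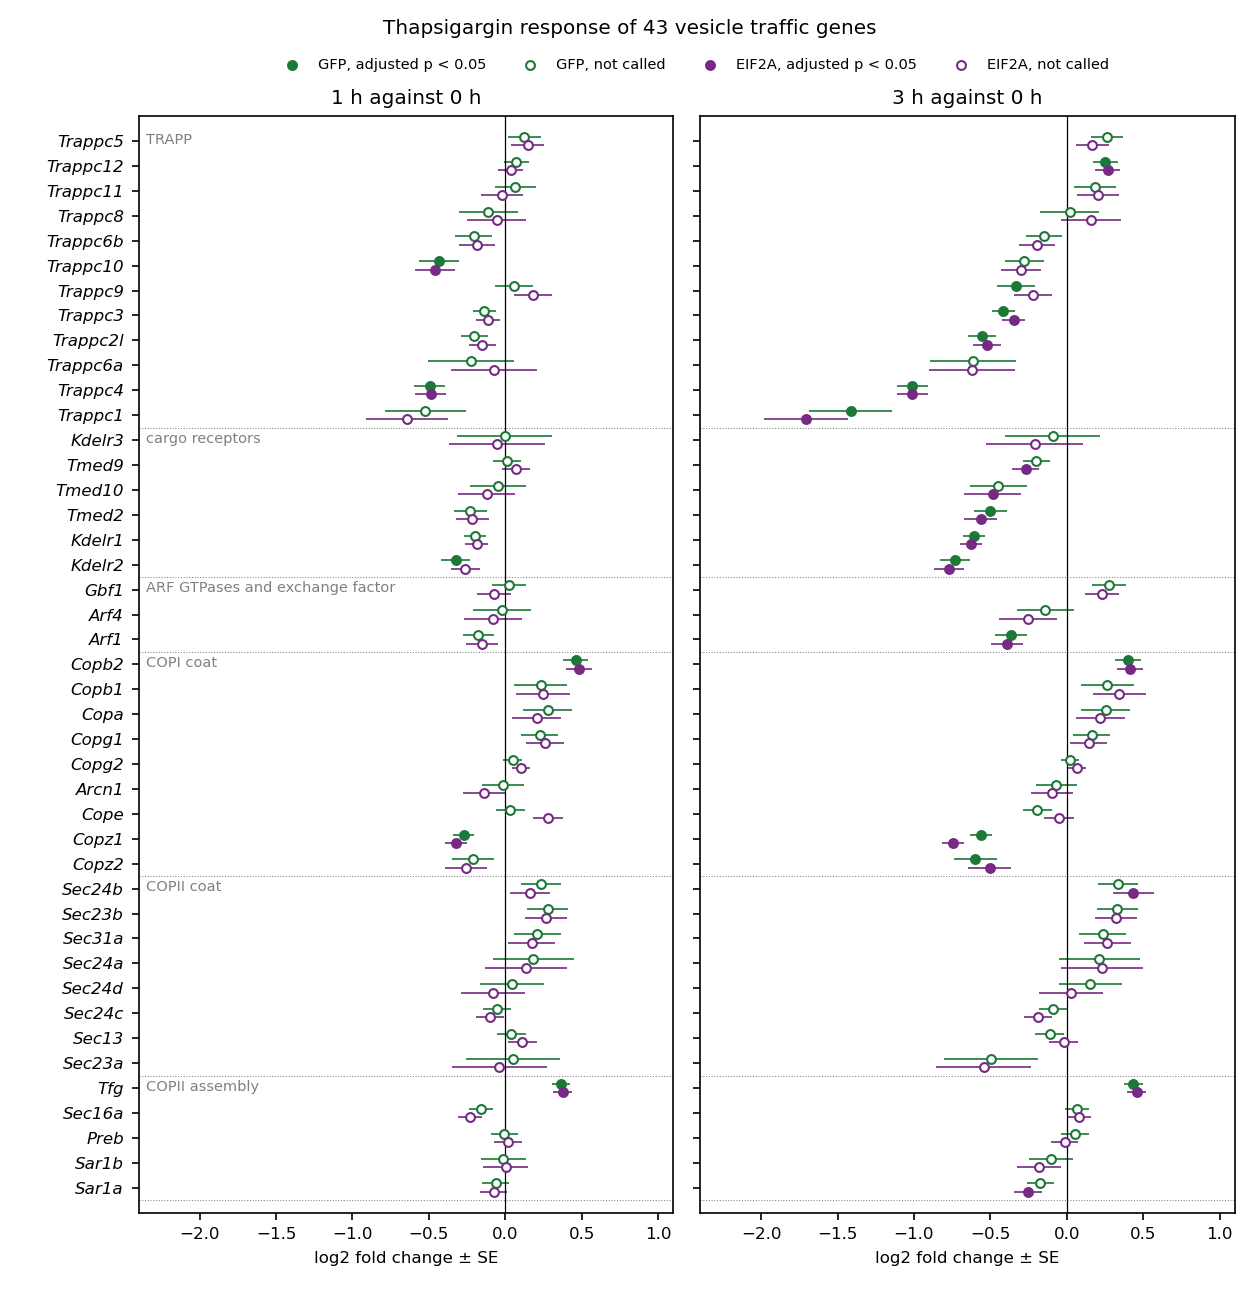
Log2 fold change ± SE of the 43 members at 1 h (left) and 3 h (right) against 0 h, by role, for GFP (green) and EIF2A (purple), 4 libraries per group; filled symbols are called at an adjusted p under 0.05. Trappc1 and Trappc4 lie farthest to the left at 3 h, and Tfg and Copb2 are filled on the right at both times.

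At 1 h, fewer members had moved. In GFP cells 2 rose, Tfg and Copb2, and 4 fell, where 8.18% of all genes were called, 5.78% up and 2.39% down. The 4 that fell were Trappc4, Trappc10, Kdelr2 and Copz1. The GFP call of Kdelr2 was lost for 7 of 8 libraries left out singly (adjusted p up to 0.122) and that of Copz1 for 5 of 8 (up to 0.0795). In EIF2A cells the same 2 rose and 3 fell, namely Trappc4, Trappc10 and Copz1. There 10.5% of all genes were called, 6.55% up and 3.94% down. The paired test gave 10 up and 14 down in GFP, against 44.6% of all genes called, 22.9% up and 21.6% down. In EIF2A it gave 12 up and 15 down, against 45.3%, 21.9% up and 23.3% down. Between 1 and 3 h, 0 members rose and 8 fell in GFP, where 9.77% of all genes were called, 5.49% up and 4.28% down. In EIF2A 1 rose and 11 fell, where 14.9% were called, 8.28% up and 6.62% down. Here the paired test gave 6 up and 18 down in GFP, against 49.7% of all genes, 25.2% up and 24.5% down. In EIF2A it gave 8 up and 21 down, against 52.7%, 26.7% up and 25.9% down. Scaling by library totals alone gave 2 up and 5 down in GFP for the same interval, where 12.4% of all genes were called, 10.3% up and 2.09% down. In EIF2A it gave 5 up and 5 down, where 21.5% were called, 18.9% up and 2.54% down. The 1 h and 3 h comparisons of a construct share its 0 h libraries.

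Among the 5 genes of COPII assembly, Tfg rose in both constructs and Sar1a fell in EIF2A cells at 3 h. Of all genes, 33.0% were called at 3 h in GFP and 36.2% in EIF2A. Tfg, a scaffold of ER exit sites, was 124, 131, 129 and 129 CPM at 0 h, 162, 173, 170.0 and 155 at 1 h and 177, 177, 174 and 166 at 3 h in GFP. In EIF2A it was 119, 131, 121 and 120.2 CPM at 0 h, 166, 161, 157 and 153 at 1 h and 179.5, 175, 171 and 148 at 3 h. Every library at 1 or 3 h stood above every 0 h library of its construct. The log2 fold change was 0.36 ± 0.062 at 1 h and 0.44 ± 0.062 at 3 h in GFP, and 0.38 ± 0.062 and 0.46 ± 0.062 in EIF2A (adjusted p 0.000849, 1.39e-05, 0.000517 and 6.99e-06). Between 1 and 3 h it differed by 0.072 ± 0.062 and 0.080 ± 0.062, and neither difference passed the test.

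Sar1a and Sar1b encode the GTPase that starts the COPII coat. Sar1a went from 329.9, 336, 339 and 353 CPM to 270.0, 311, 310.3 and 314 at 3 h in GFP. Sar1a in EIF2A went from 383, 319, 318 and 332 CPM to 341, 272, 257 and 264. The GFP groups did not overlap, while the EIF2A groups did, with replicate 1 high at both times. Its log2 fold change at 3 h was -0.25 ± 0.090 in EIF2A (adjusted p 0.032) and -0.17 ± 0.090 in GFP (adjusted p 0.152, or 0.00135 in the paired test). The EIF2A call was lost without replicate 1 of EIF2A at 0 h, where the value was -0.19, and without any 1 of replicates 2, 3 and 4 at 3 h. Sar1b was 96.1, 90.9, 90.6 and 91.4 CPM at 0 h and 87.4, 87.5, 83.1 and 84.9 at 3 h in GFP. Sar1b in EIF2A was 109, 76.8, 74.7 and 72.3 CPM at 0 h and 95.9, 75.7, 66.6 and 56.1 at 3 h. It was lower in all 8 pairs, but was called only in the paired test of EIF2A (-0.18 ± 0.050, adjusted p 0.00238).

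Sec16a encodes the platform protein of exit sites, and its group means were lowest at 1 h. It was 117, 105, 97.2 and 106 CPM at 0 h, 103, 89.4, 86.3 and 83.9 at 1 h and 121, 107, 110.5 and 111 at 3 h in EIF2A. Sec16a in GFP was 124, 109, 106 and 111 CPM at 0 h, 102, 97.96, 102 and 101 at 1 h and 102, 118, 124 and 125 at 3 h. Every EIF2A library stood higher at 3 h than every one at 1 h, and that rise of 0.31 ± 0.080 was called (adjusted p 0.0117). The corresponding GFP difference was 0.23 ± 0.079 (adjusted p 0.0784, or 0.00179 in the paired test). With the length trend removed, the EIF2A rise was 0.23 (adjusted p 0.0618). Preb, the exchange factor of Sar1, showed 0.054 ± 0.090 and -0.014 ± 0.090 at 3 h, and was called in 0 of the 6 time comparisons by either test.

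Of the 8 COPII coat genes, only Sec24b was called by the unpaired test, in EIF2A cells at 3 h, where 36.2% of all genes were called. Sec24b was 108, 83.5, 83.3 and 83.8 CPM at 0 h, 115, 105, 101 and 101 at 1 h and 122, 109, 111 and 109 at 3 h in GFP. Sec24b in EIF2A was 89.6, 66.4, 61.3 and 61.6 CPM at 0 h, 97.1, 70.2, 72.4 and 72.4 at 1 h and 117, 87.7, 86.9 and 86.4 at 3 h. Replicate 1 stood above the other 3 libraries in all 6 groups. The log2 fold change at 3 h was 0.44 ± 0.13 in EIF2A (adjusted p 0.0128) and 0.33 ± 0.13 in GFP (adjusted p 0.0563, or 2.52e-07 in the paired test), and without replicate 1 of EIF2A at 3 h the first was 0.32 and its call was lost (adjusted p 0.058). The outer coat gene Sec31a showed 0.24 ± 0.15 and 0.27 ± 0.15 at 3 h and was called up in both by the paired test alone (adjusted p 1.48e-05 and 3.69e-06). Its partner Sec13 showed -0.11 ± 0.10 and -0.020 ± 0.10. The paired test called the GFP value down (adjusted p 0.0191), but it turned to 0.0052 when libraries were scaled by their totals alone.

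The other Sec24 paralogs, which select different cargo, were not called by the unpaired test. Sec24a was 42.2, 51.7, 51.9 and 50.5 CPM at 0 h and 52.1, 67.1, 58.7 and 49.4 at 3 h in GFP. Sec24a in EIF2A was 50.02, 33.1, 29.2 and 25.0 CPM at 0 h and 67.0, 34.8, 34.4 and 25.4 at 3 h. Sec24c, the most abundant of the 4 per kilobase, was 218, 220.0, 215 and 226 CPM at 0 h and 207, 199, 207 and 214 at 3 h in GFP. Sec24c in EIF2A was 188, 249, 254 and 261 CPM at 0 h and 184, 216, 214 and 222 at 3 h. Sec24d, with the promoter motif shown above, was 64.5, 83.9, 89.3 and 89.6 CPM at 0 h and 70.4, 97.2, 96.3 and 100.5 at 3 h in GFP. Sec24d in EIF2A was 84.2, 54.6, 57.3 and 58.6 CPM at 0 h and 92.4, 57.0, 58.6 and 52.0 at 3 h. Their log2 fold changes at 3 h were 0.21 ± 0.27 and 0.23 ± 0.27 for Sec24a, -0.087 ± 0.092 and -0.19 ± 0.092 for Sec24c, and 0.15 ± 0.21 and 0.028 ± 0.21 for Sec24d, with 0 of these 6 called. In the paired test Sec24a rose in both constructs (adjusted p 0.00514 and 0.0115), Sec24d rose in GFP (0.00884) and Sec24c fell in EIF2A (0.000703). Whether the Sec24 paralogs differ from each other in response was not tested.

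The Sec23 paralogs, whose products activate the Sar1 GTPase within the inner coat, differed in direction, although only the paired test called them. Sec23b was 97.1, 112, 117 and 112 CPM at 0 h, 119.9, 137, 133 and 139.9 at 1 h and 113, 142, 148 and 147 at 3 h in GFP. Sec23b in EIF2A was 112, 86.1, 80.8 and 85.2 CPM at 0 h, 137, 99.1, 99.4 and 102 at 1 h and 148, 105, 104 and 97.3 at 3 h. Sec23a, named after its values were seen, was 21.3, 29.5, 28.8 and 26.3 CPM at 0 h, 21.2, 31.1, 28.6 and 28.9 at 1 h and 19.1, 20.3, 18.9 and 16.7 at 3 h in GFP. Sec23a in EIF2A was 28.3, 19.4, 15.2 and 13.7 CPM at 0 h, 30.5, 16.2, 14.7 and 13.1 at 1 h and 25.0, 10.8, 9.42 and 7.44 at 3 h. Sec23b was higher at 3 h, and Sec23a lower, in all 8 pairs. At 3 h Sec23b showed 0.33 ± 0.14 and 0.32 ± 0.14 (adjusted p 0.0663 and 0.0728) and Sec23a -0.50 ± 0.31 and -0.54 ± 0.31 (adjusted p 0.236 and 0.188), with 0 of the 4 called. The paired test called all 4 (adjusted p 5.00e-07, 1.80e-06, 2.31e-05 and 2.08e-05). Sec23a shares 431 exonic bases with Gm17529 on the other strand.

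The 9 coatomer genes went in both directions. At 3 h the unpaired test called Copb2 up and Copz1 and Copz2 down in both constructs. Of all genes, 33.0% were called in GFP and 36.2% in EIF2A, so the share called is near that of all genes. Copb2, a cage subunit of coatomer with the motif in its promoter, was 226, 274, 275 and 264 CPM at 0 h, 304, 379, 365 and 382 at 1 h and 304, 352, 362 and 354 at 3 h in GFP. Copb2 in EIF2A was 271, 258, 241 and 249.6 CPM at 0 h, 356, 362, 352 and 354 at 1 h and 366, 349, 329 and 315 at 3 h. No library at 1 or 3 h overlapped the 0 h libraries of its construct. It rose by 0.46 ± 0.083 at 1 h and 0.40 ± 0.083 at 3 h in GFP and by 0.48 ± 0.083 and 0.41 ± 0.083 in EIF2A on the log2 scale (adjusted p 0.00139, 0.000716, 0.000735 and 0.000474). The cage subunit gene Copa showed 0.25 ± 0.16 and 0.22 ± 0.16 at 3 h, the adaptor subunit gene Copb1 0.27 ± 0.17 and 0.34 ± 0.17, and Copg1 0.16 ± 0.12 and 0.14 ± 0.12. These 3 were higher in all 8 pairs and were called by the paired test alone in both constructs, with adjusted p from 1.02e-07 to 0.00539. Copg2, the paralog of Copg1, showed 0.021 ± 0.060 and 0.066 ± 0.061, and Arcn1, which encodes the delta subunit, -0.067 ± 0.14 and -0.10 ± 0.14, and neither was called at 3 h by either test.

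Copz1 and Copz2, which encode the small zeta subunit, fell. Copz1 was 221, 236, 246 and 256 CPM at 0 h, 184, 197, 201 and 213 at 1 h and 155, 163, 165 and 168 at 3 h in GFP. Copz1 in EIF2A was 256, 269.6, 280.4 and 294 CPM at 0 h, 225, 220.2, 215 and 219 at 1 h and 187, 157, 154 and 159 at 3 h. The 3 times did not overlap within either construct, and Copz1 was called down in all 6 time comparisons. Besides the GFP call at 1 h, that of 3 h against 1 h in GFP was lost without replicate 4 at 1 h (adjusted p 0.0537). Its log2 fold change at 3 h was -0.56 ± 0.071 in GFP and -0.74 ± 0.071 in EIF2A (adjusted p 3.64e-06 and 9.32e-08). Copz2 was 22.3, 25.6, 26.0 and 26.2 CPM at 0 h and 16.7, 16.9, 14.9 and 17.6 at 3 h in GFP. Copz2 in EIF2A was 28.6, 20.4, 22.7 and 25.3 CPM at 0 h and 21.2, 12.8, 14.7 and 19.7 at 3 h. It fell at 3 h by 0.60 ± 0.14 in GFP and by 0.50 ± 0.14 in EIF2A on the log2 scale (adjusted p 0.00202 and 0.00695). Cope, the gene of the epsilon subunit, was called by the unpaired test in 1 comparison, a fall between 1 and 3 h in EIF2A (-0.33 ± 0.10, adjusted p 0.0243), a call lost without replicate 4 of EIF2A at 1 h (adjusted p 0.118) or without replicate 2 or 3 at 3 h.

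Of the ARF group, Arf1 fell at 3 h in both constructs, where 14.6% of all genes fell in GFP and 16.6% in EIF2A. Arf1 was 646, 640.1, 656 and 629 CPM at 0 h, 582, 563, 564 and 567 at 1 h and 496, 496, 494 and 513 at 3 h in GFP. Arf1 in EIF2A was 682, 532, 547 and 559 CPM at 0 h, 641, 478, 469 and 496 at 1 h and 545, 418, 391 and 415 at 3 h. The GFP groups did not overlap, and in EIF2A replicate 1 stood above the other 3 libraries at each time. Its log2 fold change at 3 h was -0.36 ± 0.10 in GFP and -0.39 ± 0.10 in EIF2A (adjusted p 0.0099 and 0.00533). Scaled by library totals alone, both were -0.24 and neither was called (adjusted p 0.106 and 0.113). Gbf1, which loads Arf1 with GTP, was 121, 151, 153 and 156 CPM at 0 h and 142, 176, 191 and 195 at 3 h in GFP. Gbf1 in EIF2A was 129.7, 147, 163 and 161 CPM at 0 h and 150.3, 178, 178 and 197 at 3 h. It showed 0.28 ± 0.11 and 0.23 ± 0.11 (adjusted p 0.0595 and 0.115), and the paired test called it up in both (1.25e-05 and 0.000161). Arf4 showed -0.14 ± 0.19 and -0.25 ± 0.19 at 3 h, and the paired test called the EIF2A value down (0.000402). Both Arf1 and Gbf1 hold TGACGTGG in the windows printed above.

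Of the 6 cargo receptor genes, 3 fell in GFP and 5 in EIF2A at 3 h, and 0 rose. Of all genes, 14.6% fell and 18.4% rose in GFP, and 16.6% fell and 19.6% rose in EIF2A. Kdelr1 and Kdelr2 encode receptors that return proteins ending in the KDEL signal to the ER. Kdelr1 was 204, 209, 205 and 212 CPM at 0 h, 189.8, 170.5, 178 and 186 at 1 h and 148, 127, 133 and 137 at 3 h in GFP. Kdelr1 in EIF2A was 227, 217, 224 and 239 CPM at 0 h, 210.4, 189, 188 and 209 at 1 h and 169.9, 134, 134 and 149 at 3 h. Kdelr2 was 354, 326, 324 and 332 CPM at 0 h, 297, 258, 259.8 and 252 at 1 h and 226, 199.9, 191 and 188 at 3 h in GFP. Kdelr2 in EIF2A was 369.9, 356, 354 and 348 CPM at 0 h, 312, 289, 295 and 295 at 1 h and 268, 187, 200.5 and 181 at 3 h. Neither gene's 3 h libraries overlapped those of 0 h. At 3 h the log2 fold change was -0.61 ± 0.074 and -0.63 ± 0.074 for Kdelr1 (adjusted p 2.45e-06 and 1.33e-06) and -0.73 ± 0.10 and -0.77 ± 0.10 for Kdelr2 (adjusted p 6.07e-06 and 2.73e-06). Both also fell between 1 and 3 h in both constructs. Kdelr3 was low, at 6.44, 9.002, 8.95 and 10.2 CPM at 0 h and 5.56, 9.20, 8.61 and 9.03 at 3 h in GFP. Kdelr3 in EIF2A was 13.8, 5.88, 5.35 and 7.22 CPM at 0 h and 11.8, 5.28, 4.80 and 6.18 at 3 h, and the gene was called in 0 of the 6 time comparisons by either test.

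The p24 family members Tmed2, Tmed9 and Tmed10 are cargo receptors found in both kinds of vesicle. Tmed2 fell at 3 h by 0.50 ± 0.11 in GFP and by 0.56 ± 0.11 in EIF2A on the log2 scale (adjusted p 0.00102 and 0.000313), from 113, 102, 103 and 101 to 72.9, 75.5, 76.8 and 70.4 CPM in GFP. Tmed10 showed -0.45 ± 0.19 in GFP (adjusted p 0.0701, or 5.09e-10 in the paired test) and -0.48 ± 0.19 in EIF2A (adjusted p 0.0466). Tmed9 showed -0.20 ± 0.090 in GFP (adjusted p 0.0991, or 0.00809 in the paired test) and -0.27 ± 0.090 in EIF2A (adjusted p 0.0235). The EIF2A calls of Tmed10 and Tmed9 at 3 h were each lost when 1 library was left out, at most to an adjusted p of 0.217 without replicate 1 at 0 h for Tmed10 and 0.0736 without replicate 3 at 3 h for Tmed9. Scaled by library totals alone, neither was called (adjusted p 0.202 and 0.28).

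**Figure D2:**
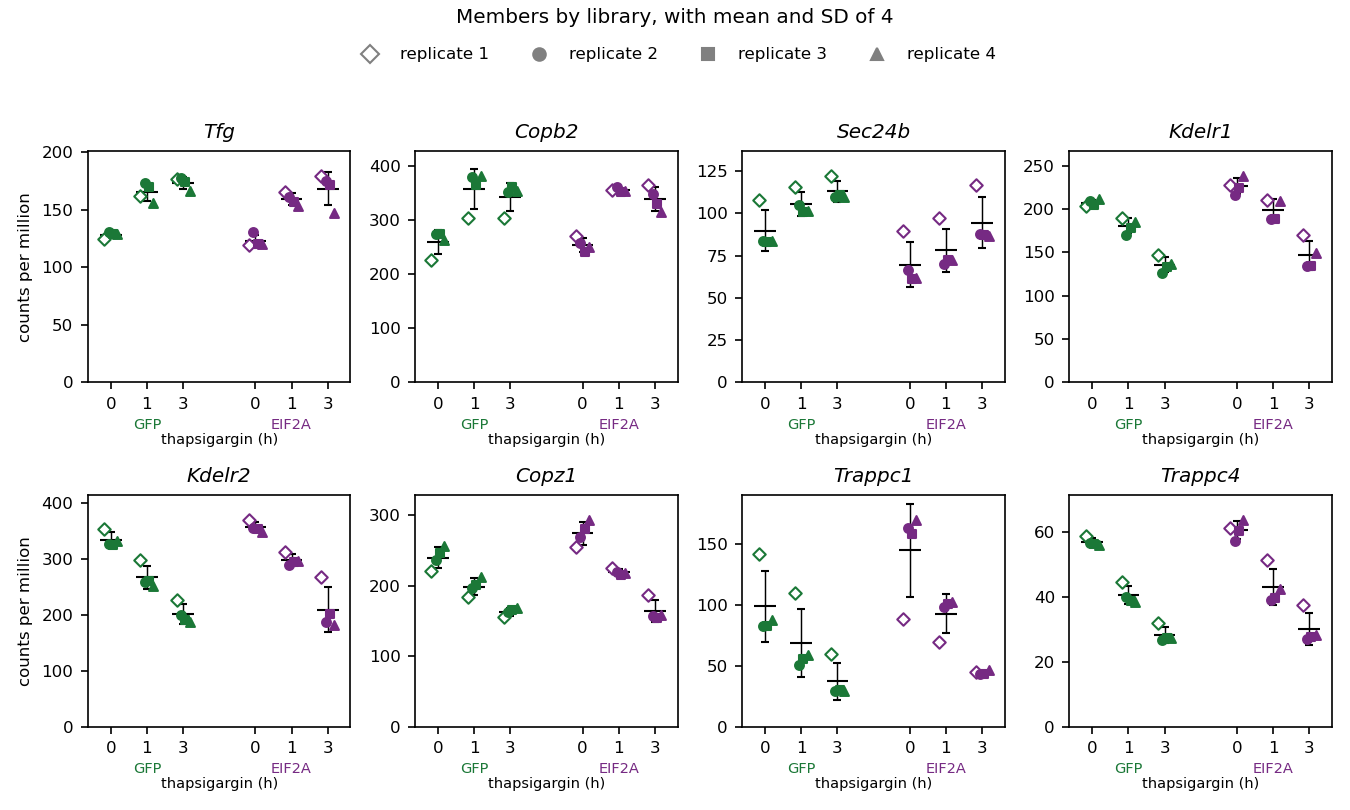
CPM of 8 members in each of the 24 libraries, by construct and hours of thapsigargin, with the mean and SD of 4; open diamonds are replicate 1. Tfg and Copb2 step up by 1 h and stay there, Kdelr1, Kdelr2, Copz1, Trappc1 and Trappc4 descend from 0 to 3 h, and in Trappc1 replicate 1 stands above the other GFP libraries and below the other EIF2A libraries at 0 and 1 h.

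TRAPP subunits gave the largest falls among the 43. Of 12 subunit genes, 5 fell and 1 rose in GFP at 3 h, and 4 fell and 1 rose in EIF2A. Among all genes it was 14.6% down and 18.4% up in GFP, and 16.6% down and 19.6% up in EIF2A. Trappc1, a small core subunit, was 142, 82.6, 82.7 and 87.7 CPM at 0 h, 109.8, 50.6, 55.8 and 58.8 at 1 h and 59.7, 29.0, 30.1 and 29.6 at 3 h in GFP. Trappc1 in EIF2A was 88.3, 164, 158 and 170.2 CPM at 0 h, 69.2, 98.3, 101 and 103 at 1 h and 44.6, 43.3, 43.4 and 46.4 at 3 h. In each of the 8 pairs it was lower at 3 h, although replicate 1 started above the other libraries in GFP and below them in EIF2A. The log2 fold change at 3 h was -1.41 ± 0.27 in GFP and -1.71 ± 0.27 in EIF2A (adjusted p 0.000383 and 4.89e-05). Without replicate 1 it was -1.51 and -1.89. At 1 h it was -0.52 ± 0.27 and -0.64 ± 0.27, called only in the paired test (adjusted p 0.00043 and 0.00013).

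Trappc4, another core subunit, was 59.0, 56.8, 56.4 and 56.0 CPM at 0 h, 44.5, 40.1, 38.9 and 38.5 at 1 h and 31.9, 26.6, 27.4 and 27.2 at 3 h in GFP. Trappc4 in EIF2A was 61.2, 57.4, 60.2 and 63.9 CPM at 0 h, 51.3, 39.2, 39.7 and 42.5 at 1 h and 37.6, 26.9, 27.8 and 28.1 at 3 h. The 3 times did not overlap in either construct. It fell by 0.49 ± 0.10 at 1 h and 1.01 ± 0.10 at 3 h in GFP and by 0.49 ± 0.10 and 1.01 ± 0.10 in EIF2A on the log2 scale (adjusted p 0.00405, 2.36e-07, 0.00351 and 1.98e-07). Trappc4 shares 462 exonic bases with Rps25, an abundant ribosomal protein gene on the other strand, so reads of the 2 may not be fully separated. The core subunit gene Trappc3 fell by 0.41 ± 0.076 and 0.35 ± 0.077 at 3 h, and Trappc2l, a further small subunit, by 0.55 ± 0.091 and 0.52 ± 0.091, with adjusted p from 7.17e-05 to 0.00114.

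The subunits that distinguish the larger TRAPP complexes did not move as 1 group. Trappc9 and Trappc10 belong to TRAPPII. Trappc10 fell at 1 h by 0.43 ± 0.13 in GFP and 0.46 ± 0.13 in EIF2A (adjusted p 0.0407 and 0.0264), and at 3 h showed -0.28 ± 0.13 and -0.30 ± 0.13, called only in the paired test. Trappc9 showed 0.058 ± 0.12 and 0.18 ± 0.12 at 1 h and fell between 1 and 3 h by 0.39 ± 0.12 and 0.40 ± 0.12 (adjusted p 0.0475 and 0.0297). Against 0 h, it fell at 3 h in GFP (-0.33 ± 0.12, adjusted p 0.0418) and showed -0.22 ± 0.12 in EIF2A (adjusted p 0.172). Each of these calls was lost for 4 to 7 of 8 libraries left out singly. The highest adjusted p was 0.154 for Trappc9 between 1 and 3 h in GFP, without replicate 4 at 1 h, and 0.109 at 3 h against 0 h, without replicate 2 at 0 h. Trappc8, Trappc11 and Trappc12 belong to TRAPPIII. Trappc12 rose at 3 h by 0.25 ± 0.082 and 0.27 ± 0.083 (adjusted p 0.0217 and 0.0142). These calls were lost for 3 and 2 of 8 libraries left out singly (adjusted p up to 0.0748 and 0.0665), and with the length trend removed Trappc12 showed 0.19 and 0.20 (adjusted p 0.324 and 0.278). Trappc11 showed 0.19 ± 0.14 and 0.21 ± 0.14, called up by the paired test alone. Trappc8 showed 0.019 ± 0.19 and 0.16 ± 0.20, the latter called up by the paired test alone (adjusted p 0.0414). Of the remaining core subunit genes, Trappc5 showed 0.27 ± 0.11 and 0.17 ± 0.11, Trappc6b -0.15 ± 0.12 and -0.20 ± 0.12 and Trappc6a -0.61 ± 0.28 and -0.62 ± 0.28, called in neither construct by the unpaired test, while the paired test called Trappc5 up and both Trappc6 genes down.

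Ratios of paralogs within a library do not depend on its scaling. The ratio of Sec23b to Sec23a counts had a mean of 4.16 at 0 h and 7.38 at 3 h in GFP, and of 4.98 and 9.94 in EIF2A, and it was higher at 3 h in 4 of 4 pairs of each construct. A two-sided exact permutation test of the log2 ratios gave p = 0.0286 in GFP, the smallest that 4 against 4 allows, and p = 0.0571 in EIF2A. Adjusted over 12 such comparisons both were 0.343. A single ratio at the smallest p could not fall under 0.05 after this adjustment, whatever its size. The ratio of Trappc6b to Trappc6a went from 2.08 to 2.88 in GFP and from 1.53 to 2.10 in EIF2A, again upward in 4 of 4 pairs each (exact permutation p = 0.229 and 0.2, adjusted 0.392 for both). For Copz1 to Copz2 it went from 9.60 to 9.89 in GFP and from 11.5 to 9.90 in EIF2A (exact permutation p = 0.714 and 0.229, adjusted 0.714 and 0.392). The other 3 ratios also gave no adjusted p under 0.343.

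**Figure D3:**
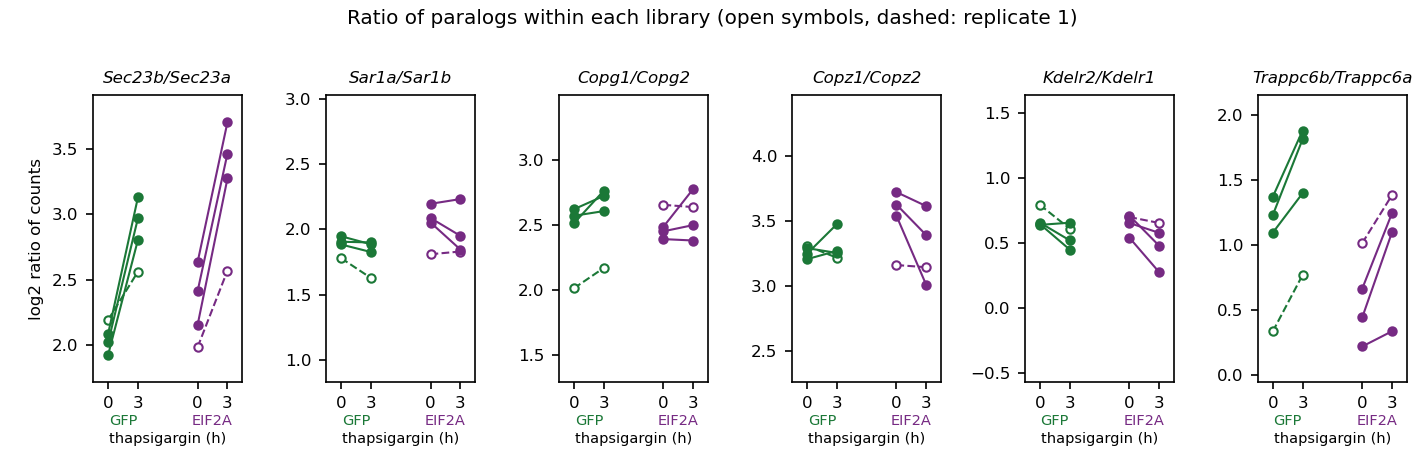
Log2 ratio of paralog counts within each library at 0 and 3 h of thapsigargin; lines join same-number libraries of a construct, and open symbols with dashed lines are replicate 1. The lines of Sec23b/Sec23a climb in all 8 pairs, while those of Sar1a/Sar1b and Kdelr2/Kdelr1 stay within a narrower range.

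Between constructs, 0 members were called at any time when all 4 replicates were used, where 0.0218% of all genes were called at 0 h, 1.02% at 1 h and 0% at 3 h. DESeq2 called 0, 3 and 0 members, where 3.40%, 11.8% and 1.25% of all genes were called. The smallest adjusted p among the members was 0.127 before treatment, 0.0535 after 1 h and 0.186 after 3 h. Leaving out replicate 1 changed this. At 0 h, 8 members were then higher and 22 lower in libraries labelled EIF2A, where 64.8% of all genes were called, 31.9% higher and 32.9% lower. At 1 h it was 10 higher and 20 lower, where 70.0% of all genes were called, 32.7% higher and 37.3% lower. At 3 h it was 5 higher and 23 lower, where 67.6% were called, 32.5% higher and 35.1% lower. A share of members called near that of all genes makes no result about the members. The members called were more often lower than all genes called were, and the cause was not tested. In replicates 2 to 4 the libraries labelled EIF2A were also shallower, with 10522758 to 16637281 counts against 16727921 to 22222701 for GFP, and had 13.3 to 17.9% of reads outside genes against 10.9 to 13.0%. Markers of other cell types moved with the construct label too. Of the 19, Gcg, Irx2, Spp1, Pecam1 and C1qa were higher in every GFP than in every EIF2A library of replicates 2 to 4 at each time, and all 5 were lower in GFP in replicate 1. At 0 h Spp1, a duct marker, was 13.3, 617, 606 and 617 CPM in GFP and 476, 30.8, 30.5 and 29.4 in EIF2A. Gcg, which encodes glucagon of alpha cells, was 272, 734, 704 and 690.5 CPM in GFP and 904, 241, 229 and 226 in EIF2A. The summed level of the 19 at 0 h was 1376 to 1418 CPM in GFP and 296 to 307 in EIF2A in replicates 2 to 4, and 328 and 1481 in replicate 1. It was 1404 to 1424, 273 to 288, 301 and 1555 CPM at 1 h in the same order, and 912 to 955, 178 to 181, 213 and 1169 CPM at 3 h. Gcg and Spp1 made up most of each sum, so it says little of the other markers. Of the defining markers, Amy2a5 was at 0 in 24 libraries, Hhex and Cpa1 in 20, Cdh5 in 19 and Adgre1 in 17. The part of depth, of reads outside genes and of these markers in the result was not tested.

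Without replicate 1, members that differed widely at 0 h included Trappc1, Trappc6a, Trappc8, Sec24a, Sec23a, Sec24d and the low Kdelr3. Kdelr1 and Kdelr2 went the other way from Kdelr3, with log2 ratios of 0.053 to 0.173 in replicates 2 to 4. Copb1, at -0.453, -0.458 and -0.641 in those replicates, was near Trappc6a in size, so no role is set apart here. Trappc1 was 0.96 ± 0.054 higher in log2 with the EIF2A label, and Trappc6a 0.52 ± 0.13 (adjusted p 1.64e-11 and 0.00191). Kdelr3 was -0.61 ± 0.12 (adjusted p 0.000212). Sec24a was -0.81 ± 0.13, Sec23a -0.79 ± 0.12, Trappc8 -0.77 ± 0.10 and Sec24d -0.63 ± 0.055 (adjusted p 2.01e-05, 1.12e-05, 1.22e-06 and 9.56e-09). Replicate 1 went the other way for most of them. Its log2 ratio of EIF2A to GFP at 0 h was -0.69 for Trappc1, -0.705 for Trappc6a, 0.244 for Sec24a, 0.41 for Sec23a, 0.385 for Sec24d and 1.101 for Kdelr3, and Trappc8, at -0.204, kept the sign. At 0 h, 37 members had 1 sign in replicates 2 to 4, and 25 of these had the opposite sign in replicate 1, while the counts were 39 and 32 at 1 h and 35 and 27 at 3 h.

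**Figure D4:**
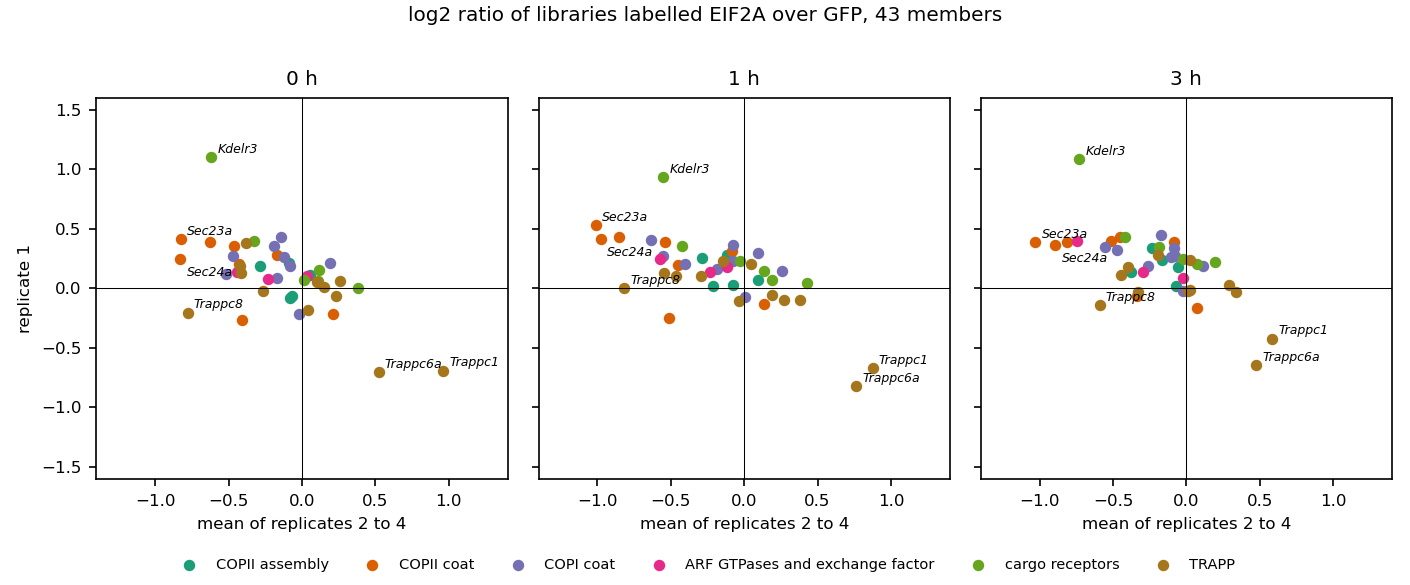
Log2 ratio of libraries labelled EIF2A to GFP for the 43 members at 0, 1 and 3 h, with the mean of replicates 2 to 4 on the horizontal axis and replicate 1 on the vertical axis, coloured by role. Most points lie in the upper left and lower right quadrants, where the signs are opposite; Trappc1 and Trappc6a lie at the lower right at all 3 times.

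The responses to thapsigargin were set against each other as the 1 h or 3 h response of EIF2A minus that of GFP. With all libraries, 0 members and 0% of all genes were called at 1 h and likewise 0 members and 0% at 3 h, and the lowest adjusted p of a member was 1 and 0.9999. Without replicate 1, 0 members were called at 1 h, where 0.816% of all genes were, and 2 at 3 h, where 4.12% were. The share of members called was thus near that of all genes and makes no result about the members. These 2 were Copz1, at -0.27 ± 0.067 (adjusted p 0.0266), and Trappc1, at -0.38 ± 0.081 (adjusted p 0.0108), both with the larger fall in libraries labelled EIF2A. In replicate 1, left out here, the larger fall was in GFP for both. Its log2 ratio of 3 h to 0 h was -1.254 in GFP and -0.985 in EIF2A for Trappc1, and -0.508 and -0.45 for Copz1. The starting levels of the 2 genes differed too. Without replicate 1, Trappc1 was 84.3 ± 2.94 CPM (SD, n = 3) in GFP and 164 ± 6.02 in EIF2A at 0 h, and 29.6 ± 0.529 and 44.4 ± 1.73 at 3 h, while Copz1 was 246 ± 10.1 and 281 ± 12.2 at 0 h and 165 ± 2.83 and 156 ± 2.34 at 3 h.

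Other genes of the same route, 52 of 53 listed, were counted beside the members. At 3 h, 11 rose and 10 fell in GFP, and 9 rose and 12 fell in EIF2A, which is 40.4% called in each construct. The share of all genes called was 33.0% in GFP and 36.2% in EIF2A. The highest in GFP were the SNARE gene Stx18 at 0.66 ± 0.11 and the Golgi matrix gene Golga2 at 0.56 ± 0.062, and in EIF2A Golga2 at 0.64 ± 0.062 and Stx18 at 0.64 ± 0.11. The lowest were Tmed7, a p24 gene, at -0.77 ± 0.24 and -0.86 ± 0.24, and the GTPase gene Arf5 at -0.73 ± 0.13 and -0.74 ± 0.13.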

How the data were processed

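Polyadenylated RNA of 24 MIN6 libraries was made into stranded libraries, per the labels' protocols. According to the submitters' processing notes, bcl2fastq and STAR were used with build mm10. How reads were assigned to genes, with which annotation and strand setting, is not given in the sources used here. Unnormalized read counts for each gene were deposited by the authors. Of all reads listed, 10.7 to 17.9% per library stood on a line for reads outside any gene and 0.52 to 0.59% on a line for ambiguous reads, and both lines were left out.

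Groups and replicate numbers came from the sample titles. The genes, lists and tests were chosen with earlier results of these data known. Counts were scaled by TMM, filtered with edgeR's defaults (minimum count 10, minimum total 15) and fitted with edgeR 4.0.16 in R 4.3.3, by a robust quasi-likelihood fit with 1 mean per group across the 24 libraries (18 residual degrees of freedom). P-values were adjusted by Benjamini-Hochberg over 13761 genes and called under 0.05. Ratios of paralogs were tested by exact permutation. The fit was tested on simulated counts before use. Depth was 10522758 to 22222701 counts per library, and the standard errors rest on the spread between libraries.

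Whether equal numbers pair libraries was checked by correlating deviations from the group means over genes. With all 4 replicates, every pair within a construct correlated, from 0.51 to 0.933. A fit with the number as a block (12 residual degrees of freedom) is given where it changes a call. Among replicates 2 to 4 alone the correlations were -0.026 to 0.312. Between constructs they were -0.663 to -0.159, so the numbers do not pair the constructs. Alternatives were DESeq2 1.42.0, scaling by library totals, no filter on low counts, removal of a length trend (loess of span 0.5, fitted to log2 CPM, prior count 2) and leaving out each replicate and library.

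Any member may be named. Values of every library are given for the 2 members per role with the smallest p over the 6 time comparisons and for paralogs where 1 was called, and Sec23a was added after its values were seen. Other ER to Golgi genes are named where their log2 fold change at 3 h was among the 2 highest or 2 lowest called. Coordinates are of GRCm38, the build of mm10, with exonic lengths from GENCODE M21. Of the list of other genes, 1 name was not in the table and is not analysed here.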

Additional observations from a re-analysis of the deposited data

Results flagged for a closer look

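Among the members shown library by library, 34 groups of 4 held 1 library set far apart from the other 3, by the gap to its nearest neighbour over the whole range. Over all 43 members, 62 of 258 groups did, in 32 members, and the library was replicate 1 in 57 of the 62. Chance marks about 5% of such groups. All values are CPM.

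Replicate 1 was the high library in many of these groups. Sar1a was 349 in EIF2A at 1 h. Sar1b was 96.1 in GFP at 0 h and 109 in EIF2A at 0 h. Sec23b was 137 in EIF2A at 1 h and 148 in EIF2A at 3 h. Sec24b was 108 in GFP at 0 h, 122 in GFP at 3 h, 97.1 in EIF2A at 1 h and 117 in EIF2A at 3 h. Sec24d was 84.2 in EIF2A at 0 h, 90.7 in EIF2A at 1 h and 92.4 in EIF2A at 3 h. Copz1 was 187 in EIF2A at 3 h. Arf1 was 641 in EIF2A at 1 h. Kdelr2 was 297 in GFP at 1 h. Trappc1 was 142 in GFP at 0 h, 109.8 in GFP at 1 h and 59.7 in GFP at 3 h. Trappc4 was 31.9 in GFP at 3 h and 37.6 in EIF2A at 3 h.

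Replicate 1 was the low library in the others. Sar1a was 270.0 in GFP at 3 h. Sec23b was 113 in GFP at 3 h. Sec24a was 42.2 in GFP at 0 h. Sec24c was 188 in EIF2A at 0 h and 185 in EIF2A at 1 h. Sec24d was 70.4 in GFP at 3 h. Copb2 was 304 in GFP at 3 h. Copz2 was 22.3 in GFP at 0 h. Gbf1 was 121 in GFP at 0 h. Kdelr3 was 5.56 in GFP at 3 h. Trappc1 was 88.3 in EIF2A at 0 h and 69.2 in EIF2A at 1 h.

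Replicates other than the first stood apart in 2 of the 34. Tfg in replicate 2 was high, at 131 in EIF2A at 0 h. Arf1 in replicate 4 was high, at 513 in GFP at 3 h. In Trappc1, Sec24d and Sec23b the library labelled GFP and the library labelled EIF2A of replicate 1 stood apart in opposite directions, as Eif2a itself did. In Sar1b, Sec24b and Trappc4 replicate 1 was high under both labels.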

How the results depend on the processing

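Of 62 called member results, DESeq2, the replicate block and leaving out replicate 1 from all groups lost 0, removal of a length trend 6, no filter on low counts 10 and library totals alone 17. Leaving out replicate 2, 3 or 4 from all groups lost 37, 41 and 28, and leaving out 1 library lost at least once 21 of the 62. No called result changed direction. Depth and the spread between 4 libraries per group limit which small changes can be called.

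With the replicate block, 24, 34 and 24 members were called in GFP, beside 44.6%, 67.1% and 49.7% of all genes. This block compares libraries of 1 number, and the order is 1 h against 0 h, 3 h against 0 h, 3 h against 1 h. In EIF2A it was 27, 35 and 29, beside 45.3%, 66.2% and 52.7% of all genes. Between constructs at 0, 1 and 3 h, where the numbers do not pair the libraries, it was 3, 6 and 3, beside 9.69%, 21% and 7.66%. With the length trend removed as well as the replicate block, GFP had 23, 35 and 21, beside 44.6%, 67.1% and 49.2% of all genes. EIF2A had 24, 31 and 27, beside 45.4%, 66.5% and 51.5%. Between constructs it was 4, 9 and 2, beside 5.70%, 12.9% and 3.20%. No filter on low counts gave 3 in GFP at 1 h, beside 3.96% of all genes. DESeq2 gave 8 in EIF2A at 1 h, beside 14%, and 3 between constructs at 1 h, beside 11.8%. Removal of the length trend without replicate 1, chosen after the data were seen, gave 32, 34 and 32 between constructs, where 63.1%, 66.8% and 65.6% of all genes were called. Leaving out replicates or single libraries gave ranges of 0 to 19, 10 to 30 and 0 to 20 in GFP, 0 to 26, 10 to 32 and 1 to 28 in EIF2A, 0 to 30, 0 to 30 and 0 to 28 between constructs, and 0 to 2 for the difference of the 3 h responses. Each of the highest values came from leaving out replicate 1 of all groups. In that setting 39.4%, 63% and 42.2% of all genes were called in GFP and 42%, 62.6% and 49.1% in EIF2A. Between constructs it was 64.8%, 70% and 67.6%, and for the difference of the 3 h responses 4.12%.

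The results that changed sign were not called by the unpaired test. Library totals alone gave 0.0052 for Sec13 in GFP at 3 h against 0 h, and in EIF2A at 3 h against 1 h 0.027 for Sec13 and 0.045 for Copg1. The rest turned with replicate 1 of 1 group. Trappc6a in GFP at 1 h was 0.093 without it at 0 h and -0.58 without it at 1 h. In EIF2A, Tmed10 at 1 h was 0.073 without it at 0 h and -0.34 without it at 1 h. Against 0 h at 3 h, Sec24a was 0.47 and Trappc8 0.35 without it at 0 h, and -0.13 and -0.0033 without it at 3 h. Between 1 and 3 h, Copb1 was 0.32 and Arf4 0.022 without it at 1 h, and -0.086 and -0.47 without it at 3 h. The cause was not tested.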
